A study of Homo sapiens with 18 samples.

Results

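The 8 genes described here encode immunoglobulin-domain adhesion molecules of the L1, NCAM and contactin families: L1CAM, CHL1, NRCAM, NFASC, NCAM1, NCAM2, CNTN1 and CNTN5, out of 20365 genes in the deposited tables. The set was drawn up by family, and it was chosen on measured values because 2 of its genes, L1CAM and CNTN5, moved strongly in these same libraries. The values of L1CAM and CNTN5 are therefore given as a description with no test, and tests are given for the other 6 genes where their counts allowed one.

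RNA was sequenced from PC3, an established human prostate cancer cell line, in 18 libraries that make up 6 groups of 3. In the knockdown experiment all cells carried a lentiviral vector and were grown in RPMI with 10% serum. The vector encoded an shRNA that targets Elongin B (group EloB KD) or Elongin C (group EloC KD), or a control shRNA (group Control KD), and the labels do not say how many hairpins or clones stand behind each group. In the peptide experiment all cells were exposed for 24 h to 12,5 µM of a peptide in 2.5% serum. The peptide was a BC-box in its wild-type form (WT peptide) or mutated (Mutant peptide), or a scrambled sequence that served as control (Scrambled peptide). Elongin B and Elongin C form a dimer that binds BC-box proteins, among them Elongin A and substrate receptors of cullin ubiquitin ligases. The comparisons ask how far loss of either subunit, or a peptide carrying the box, alters these adhesion genes.

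L1-type molecules (L1CAM, CHL1, NRCAM, NFASC) span the membrane, bind each other and other adhesion proteins through their immunoglobulin and fibronectin domains, and tie to the ankyrin-spectrin skeleton inside the cell. NCAM1 and NCAM2 are related homophilic adhesion molecules, and NCAM1 can carry polysialic acid, which weakens adhesion. Contactins lack a transmembrane part and sit on the membrane through a lipid anchor, next to L1-type partners. All are best known from axon growth and nerve contacts, and L1CAM is also found on carcinoma cells, where it is linked to motility and invasion.

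The libraries held 40.3 to 57.2 M counted reads each with the hairpins and 31.7 to 34.7 M each with the peptides. The hairpins lowered their targets: ELOB was at 596.3, 478.3 and 535.0 normalised counts in EloB KD against 2626, 4118 and 4950 in Control KD (log2 difference −2.82 ± 0.20 (SE), limma adjusted p = 3.5e-05). ELOC was at 491.8, 497.4 and 557.9 in EloC KD against 4797, 4097 and 4547 (−3.12 ± 0.10, limma adjusted p = 1.4e-07). Of the markers of the line, VIM, CD44 and CAV1 were abundant and KLK3 (prostate-specific antigen) had no read in any library. In each group 9 of 15 neuronal and neuroendocrine markers had means under 10, not the same 9 in both experiments, and CHGA had no read in the knockdown libraries, while NEFL (neurofilament light chain) and ENO2 (neuron-specific enolase) were abundant in PC3 cells. The summed level of that list was 29651 to 36961 in Control KD, 25204 to 29480 in EloB KD and 17903 to 20755 in EloC KD. Most of that sum was NEFL and ENO2, at 20683 ± 737 and 12221 ± 2981 in Control KD. Both fell in EloC KD (−0.90 ± 0.09 and −0.61 ± 0.17), whereas MAP2 rose there by 0.79 ± 0.20. In EloB KD NEFL fell (−0.44 ± 0.09, limma adjusted p = 0.00869) and SYP rose by 0.70 ± 0.18. Of 7 glial and Schwann cell markers 3 had means under 10 in the knockdown groups, SOX10 and S100B had at most 2 reads there, and the list summed to 4499 to 5212, 4763 to 5486 and 3098 to 3504, most of it MBP (myelin basic protein). The part of these markers in the results below was not tested. In bulk RNA, fewer cells of a type and less RNA per cell cannot be told apart.

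All values below are read counts divided by the library's size factor (normalised counts) unless a sentence names another scale. Errors of levels are SDs over 3 libraries and errors of log2 differences are standard errors of a limma fit to log2 of the normalised count plus 1. Adjusted p-values are limma's, adjusted by Benjamini-Hochberg over all genes tested in a comparison, with 0.05 as the threshold. An exact permutation test of 3 libraries against 3 has 0.1 as its smallest p, and nothing in the labels tells whether replicates came from separate cultures, so a p-value measures the spread between these libraries. A gene was fitted where its mean over the 9 libraries of the experiment reached 10. Of the 8 genes, 7 passed in the knockdown table and CHL1 did not. In the peptide table only L1CAM and CNTN1 passed.

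Levels between the genes can be compared per length only, as RPKM (reads per kilobase of annotated exon and per M reads of the library). On that scale every gene of the set was low in PC3 cells. In Control KD the order was L1CAM at 0.320 ± 0.063, CNTN1 at 0.186 ± 0.058, NCAM2 at 0.066 ± 0.038 and NRCAM at 0.020 ± 0.0082, followed by NCAM1, NFASC, CNTN5 and CHL1 at 0.0102 RPKM or less. The 3 libraries of L1CAM did not overlap with those of CNTN1, nor those of CNTN1 with those of NCAM2, whereas NCAM2 and NRCAM overlapped. In EloB KD CNTN1 stood first at 0.394 ± 0.162 RPKM, above L1CAM at 0.191 ± 0.027. In EloC KD L1CAM was first at 0.592 ± 0.189 and CNTN5, seventh in Control KD, was second at 0.326 ± 0.145 RPKM, and their libraries overlapped. With the Scrambled peptide L1CAM was at 1.71 ± 0.26 RPKM and CNTN1, the next gene, at 0.0394 ± 0.0136 RPKM. The experiments were normalised in separate tables and differ in serum, vector and peptide, so levels across them stand side by side with no comparison.

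**Figure D1:**
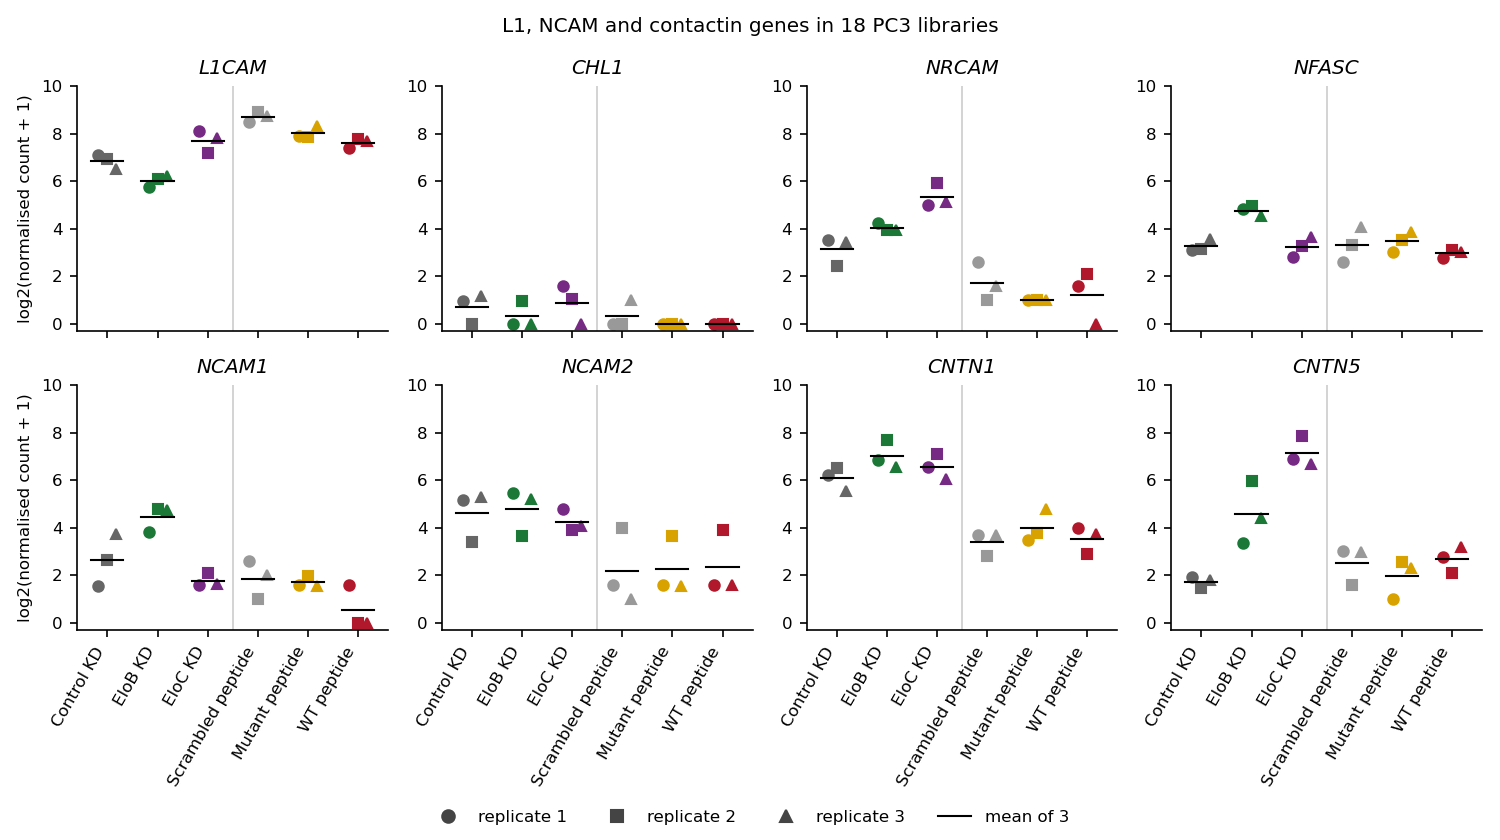
Log2 of the normalised count plus 1 (vertical axis) of the 8 genes in the 18 libraries, by group (horizontal axis); each symbol is 1 library, its shape gives the replicate number and the bar is the mean of 3. CNTN5 runs from 1.76 to 2.83 normalised counts in Control KD to 102.1 to 230.5 in EloC KD, and L1CAM is lower in EloB KD and higher in EloC KD than in Control KD.

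L1CAM, the founding member of the family and a ligand of itself, integrins and neuropilin-1, lies on chromosome X at chrX:153861514-153886174 on the minus strand (GRCh38, GENCODE release 29), with 30 merged exons. It was at 137.5, 120.3 and 90.1 normalised counts in Control KD, at 53.1, 67.2 and 72.9 in EloB KD and at 272.1, 144.7 and 225.2 in EloC KD. The lowest control library lay above the highest EloB KD library, and the highest control library lay below the lowest EloC KD library, by a narrow gap. The log2 difference from Control KD was −0.83 ± 0.26 in EloB KD and 0.85 ± 0.26 in EloC KD, which is 1.78-fold lower and 1.81-fold higher. Both comparisons use the same control libraries. Between the knockdowns the difference was −1.68 ± 0.26, or 3.21-fold. Libraries of the same replicate number gave differences from control of −1.36, −0.83 and −0.30 in EloB KD and of 0.98, 0.26 and 1.31 in EloC KD. The authors' deposited table gives −0.75 and 0.79 for these comparisons and −1.55 between the knockdowns; whether the deposited fold changes, here and below, were shrunk is not given in the sources used here, so their size cannot be set against the values fitted here. LCA10 on the opposite strand shares 359 bases with L1CAM exons, 4.94% of their length, and U52112.1 on the same strand shares 439; the strand setting of the counting is not given in the sources used here, so reads from these shared stretches cannot be told apart.

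Among the peptide groups L1CAM was again at different levels. It was at 353.1, 472.6 and 425.5 normalised counts with the Scrambled peptide, 234.5, 227.0 and 321.2 with the Mutant peptide and 165.1, 217.3 and 203.7 with the WT peptide. The 3 groups did not overlap and were ordered WT, Mutant, Scrambled from low to high, with the highest WT library just under the lowest Mutant library. The log2 difference from the Scrambled peptide was −1.09 ± 0.17 (2.13-fold lower) for the WT peptide and −0.68 ± 0.17 (1.60-fold lower) for the Mutant peptide, and both share the Scrambled libraries. The log2 difference of WT from Mutant was −0.41 ± 0.17. The authors' deposited table gives −0.52 for the WT against the Scrambled peptide. Without the libraries numbered 2, which deviate together in this experiment, the differences from the Scrambled peptide were −1.08 for the WT and −0.50 for the Mutant peptide.

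The sequence before the L1CAM start is shown because the groups of both experiments did not overlap in this gene. RefSeq (GRCh38.p14) puts the start 10230 bases inside the longest GENCODE gene model, and the 250 bases before it overlap annotated exons. The stretch printed is the longest part of that window outside every exon, at chrX:153876040-153876113 on the minus strand, 169 to 96 bases before the start, 5′ to 3′, with GC boxes (GGGCGG on either strand) in capitals.
L1CAM: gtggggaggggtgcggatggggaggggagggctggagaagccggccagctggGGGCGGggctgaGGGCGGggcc
The window held 2 GC boxes, which began 117 and 105 bases before the start. A GC box, which was looked for after the sequences had been seen, occurs in 42.6% of the 35116 promoter windows of this length in the table.

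CNTN5, a contactin known from the auditory system, spans 1337933 bases at chr11:99020953-100358885 on the plus strand, in 29 merged exons. It was at 2.83, 1.76 and 2.43 normalised counts in Control KD, which is 3, 2 and 2 reads, at 9.32, 60.5 and 19.9 in EloB KD and at 115.8, 230.5 and 102.1 in EloC KD. The 3 groups did not overlap: every EloB KD library lay above every control library, and every EloC KD library above every EloB KD library. Replicate 2 was the highest library of both knockdown groups. On summed reads the ratio to Control KD was 12.8 in EloB KD (94 against 7 reads) and 64.0 in EloC KD (429 against 7 reads). EloB KD stood at 0.200 of EloC KD. These ratios pool the 3 libraries of a group, which held 10, 63 and 21 reads in EloB KD, and are a description only. The fitted log2 differences were 2.84 ± 0.57, 5.41 ± 0.57 and −2.57 ± 0.57. With so few control reads these depend on the pseudocount: with 5 in place of 1 they were 1.96 for EloB KD and 4.31 for EloC KD, and DESeq2 on the reads gave 3.69 and 6.01. Without EloB KD replicate 2 the difference of EloB KD was 2.15 from Control KD and −3.26 from EloC KD, and without EloB KD replicate 1 it was 3.44 and −1.97. The authors' deposited table gives 1.60, 3.27 and −1.67.

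In the peptide experiment CNTN5 stayed near the floor of detection. It was at 7.0, 1.97 and 6.89 normalised counts with the Scrambled peptide, 1.02, 4.81 and 3.87 with the Mutant peptide and 5.86, 3.20 and 8.15 with the WT peptide. All 3 groups overlapped, and the gene did not pass the filter there. The 250 bases before its RefSeq start, which lies 4 bases before the GENCODE start, overlap no annotated exon. They are printed because this gene had the largest fitted difference of the set, at chr11:99020699-99020948 on the plus strand, with GC boxes again in capitals.
CNTN5: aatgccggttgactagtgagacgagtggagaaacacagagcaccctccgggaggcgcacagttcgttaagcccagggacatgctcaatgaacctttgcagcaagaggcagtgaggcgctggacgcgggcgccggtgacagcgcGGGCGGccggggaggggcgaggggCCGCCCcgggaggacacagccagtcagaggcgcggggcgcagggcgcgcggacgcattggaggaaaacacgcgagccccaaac
The window had a GC content of 67.6% against a median of 58.0% over all promoter windows, and that of L1CAM 62.4%. It held 2 GC boxes, 1 on each strand, and so did the L1CAM window, on 1 strand. Neither window held the letters TGANTCA (the AP-1 site), GGAATG (TEAD), GGANTTTCC (NF-kB) or ACGTG (the core of the HIF site) on either strand. These letters occur in 6.57%, 11.9%, 1.45% and 18.5% of all windows. Of the 7 genes of the set with a promoter entry (NCAM1 was not matched), CNTN1 alone held any of them, GGAATG at 130 bases before its start. A match or its absence describes these letters in these windows and nothing more.

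NRCAM and NFASC had other orders of the groups than L1CAM. NRCAM, an ankyrin-binding molecule of axons and nodes of Ranvier, lies at chr7:108147623-108456717 on the minus strand. It was at 10.4, 4.39 and 9.74 normalised counts in Control KD, 17.7, 14.4 and 14.2 in EloB KD and 30.7, 59.0 and 33.7 in EloC KD. The 3 groups were ordered Control KD, EloB KD, EloC KD and did not overlap. NRCAM rose in EloC KD by 2.22 ± 0.38 on the log2 scale (4.64-fold, limma adjusted p = 0.00103), higher in 3 of 3 pairs of the same number. The difference of EloB KD from control, 0.91 ± 0.38, did not pass (limma adjusted p = 0.115), and between the knockdowns NRCAM was lower in EloB KD (−1.30 ± 0.38, limma adjusted p = 0.0163). That last call ended without EloB KD replicate 3 (limma adjusted p = 0.0502) and without EloC KD replicate 2 (0.0695). In the peptide libraries NRCAM had at most 5.00 normalised counts and did not pass the filter.

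NFASC (neurofascin), which gathers ion channels at nodes and axon initial segments, lies at chr1:204828651-205022822 on the plus strand. It was at 7.54, 7.90 and 11.0 normalised counts in Control KD, 27.0, 29.8 and 21.8 in EloB KD and 5.94, 8.58 and 11.6 in EloC KD. Every EloB KD library lay above every other knockdown library, while Control KD and EloC KD overlapped. NFASC rose in EloB KD by 1.48 ± 0.33 (2.79-fold, limma adjusted p = 0.0115) and stood 1.52 ± 0.33 above EloC KD (limma adjusted p = 0.00385). Its mean reached 10 only through EloB KD, so the filter favoured these calls; with no filter on low values the limma adjusted p were 0.0129 and 0.00427. The difference of EloC KD from control was −0.04 ± 0.33 (limma adjusted p = 0.934). NFASC was between 5.00 and 15.8 normalised counts in the 9 peptide libraries, with overlapping groups and a mean under 10. CHL1 (close homolog of L1) was all but undetected. It had 0 to 2 reads in each knockdown library and 1 read in the 9 peptide libraries together; a count of 0 allows up to 3 reads, which is 0.0524 to 0.0745 reads per M reads in the knockdown libraries and 0.0865 to 0.0947 reads per M reads in those of the peptides.

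NCAM1, the classical neural cell adhesion molecule, lies at chr11:112961247-113278436 on the plus strand. It was at 1.88, 5.27 and 12.2 normalised counts in Control KD, 13.0, 26.9 and 25.6 in EloB KD and 1.98, 3.22 and 2.11 in EloC KD. EloB KD lay above both other groups in every library, by a narrow gap to control replicate 3, and EloC KD overlapped with Control KD. NCAM1 rose in EloB KD by 1.82 ± 0.55 (3.52-fold, limma adjusted p = 0.0398) and stood 2.69 ± 0.55 above EloC KD (6.44-fold, limma adjusted p = 0.00256). NCAM1, too, reached the mean of 10 only through EloB KD, and with no filter the limma adjusted p were 0.039 and 0.00224. The difference of EloC KD from control, −0.87 ± 0.55, did not pass (limma adjusted p = 0.224), and it passed without Control KD replicate 1 (−1.42, limma adjusted p = 0.0487). The call in EloB KD ended with DESeq2 as run here (adjusted p = 0.0587), with quantile scaling (0.142) and in a fit of EloB KD and Control KD alone (0.0622). It also ended without Control KD replicates 1 or 2 or EloB KD replicates 2 or 3 (0.0894 to 0.121). The authors' deposited DESeq2 result passed the threshold (adjusted p = 0.0299). The rise was 1.26 on the log2 scale without Control KD replicate 1 and 2.36 without Control KD replicate 3. NCAM1-AS1 and AP000802.1 on the opposite strand share 552 and 151 bases with NCAM1 exons, and their reads cannot be told apart here. In the peptide libraries NCAM1 had 0 to 5.00 normalised counts.

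NCAM2, a related molecule of the olfactory system, lies at chr21:20998315-21543329 on the plus strand. It was at 34.9, 9.66 and 37.7 normalised counts in Control KD, 42.9, 11.5 and 36.0 in EloB KD and 26.7, 13.9 and 15.8 in EloC KD. Within each knockdown group the library numbered 2 was the lowest. The groups overlapped and no comparison passed: the log2 differences were 0.15 ± 0.58 in EloB KD (limma adjusted p = 0.883), −0.36 ± 0.58 in EloC KD (0.643) and 0.52 ± 0.58 between them (0.498). With the peptides NCAM2 was at 2.00, 14.8 and 0.98 (Scrambled), 2.04, 11.5 and 1.94 (Mutant) and 1.95, 13.8 and 2.04 (WT). Here the library numbered 2 was the highest of each group, and the other 6 had 1 or 2 reads. So NCAM2 followed the replicate number in both experiments and the labels give no reason; the cause was not tested.

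**Figure D2:**
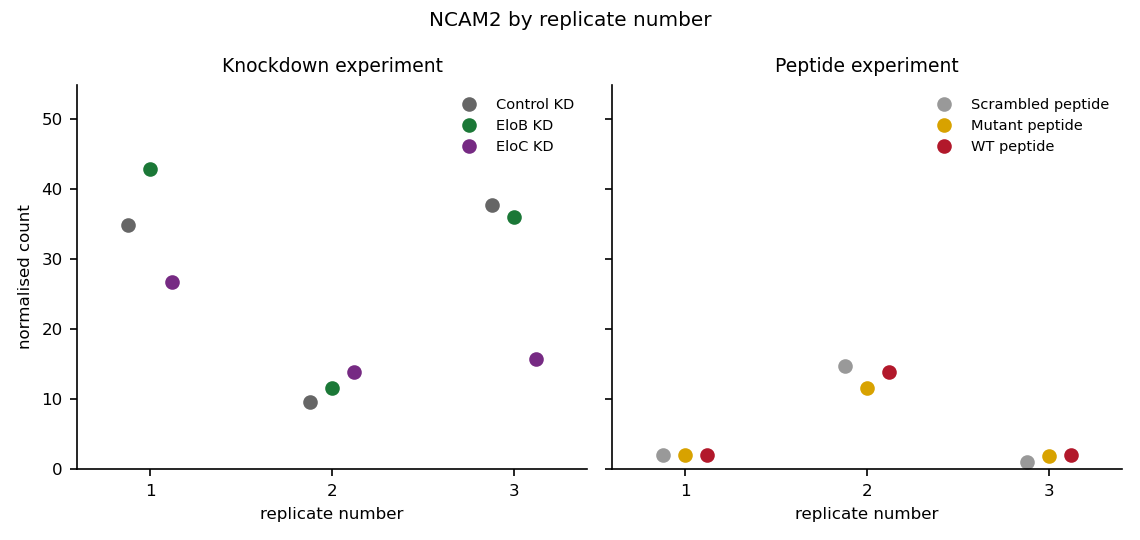
NCAM2 in normalised counts (vertical axis) against the replicate number in the labels (horizontal axis), for the 3 knockdown groups (left) and the 3 peptide groups (right); each point is 1 library. Number 2 is the lowest library of each knockdown group (9.66 to 13.9) and the highest of each peptide group (11.5 to 14.8).

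CNTN1, the contactin of myelinated axons and a partner of NFASC and CNTNAP1, lies at chr12:40692442-41072418 on the plus strand. It was at 73.5, 89.6 and 45.0 normalised counts in Control KD, 115.5, 203.6 and 92.8 in EloB KD and 93.0, 135.1 and 65.3 in EloC KD. In each group replicate 2 was the highest and replicate 3 the lowest, and within each number the order was Control KD, EloC KD, EloB KD. The EloB KD libraries lay above all control libraries, the EloC KD libraries overlapped with both. Neither knockdown passed in the main fit, with 0.95 ± 0.36 in EloB KD (limma adjusted p = 0.0922), 0.48 ± 0.36 in EloC KD (0.308) and 0.47 ± 0.36 between them (0.321). With the replicate number as a block all 3 passed (limma adjusted p = 0.00143, 0.0255 and 0.0283). DESeq2 also called EloB KD, both as run here (adjusted p = 0.0456) and in the authors' deposited result (adjusted p = 0.0436). The deposited DESeq2 result did not call EloC KD (adjusted p = 0.326) or the difference between the knockdowns (adjusted p = 0.297).

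With the peptides CNTN1 was at 12.0, 5.91 and 11.8 (Scrambled), 10.2, 12.51 and 26.1 (Mutant) and 14.7, 6.39 and 12.2 normalised counts (WT), and all groups overlapped. The log2 differences were 0.14 ± 0.45 for the WT and 0.61 ± 0.45 for the Mutant peptide against the Scrambled peptide and −0.47 ± 0.45 between WT and Mutant (limma adjusted p = 0.954, 0.806 and 0.936). No difference was detected, and the standard errors leave room for differences of either sign.

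Across the 6 genes not chosen for their movement, 5 were fitted in the knockdown experiment. In EloB KD 2 rose (NFASC and NCAM1) and none fell, where 20.5% of all 13764 genes were called, 9.34% higher and 11.2% lower. In EloC KD 1 rose (NRCAM) and none fell, where 42.5% of all genes were called, 21.3% higher and 21.2% lower. Between EloB KD and EloC KD 3 were called, NFASC and NCAM1 higher and NRCAM lower, where 46.1% of all genes were called, 22.3% higher and 23.8% lower. With the replicate block CNTN1 was added in each comparison, which gave 3, 2 and 4 genes, where 36.3%, 57% and 59.4% of all genes were called. With 5 genes fitted, these counts are too small to be set apart from the shares over all genes. NFASC and NCAM1 had means under 10 in Control KD and EloC KD and passed the filter through EloB KD, so a difference had to appear once they were fitted. In the peptide experiment 1 of the 6, CNTN1, was fitted and limma called none in any comparison, with none at an unadjusted p under 0.05 and none by edgeR; DESeq2 gave CNTN1 no adjusted p. Of all 13105 genes limma called 1.43% for the WT against the Scrambled peptide, 0% for the Mutant against the Scrambled peptide and 0% for WT against Mutant. At an unadjusted p under 0.05 the last 2 had 1142 and 898 genes, DESeq2 called 184 and 63 and edgeR 0 in each.

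**Figure D3:**
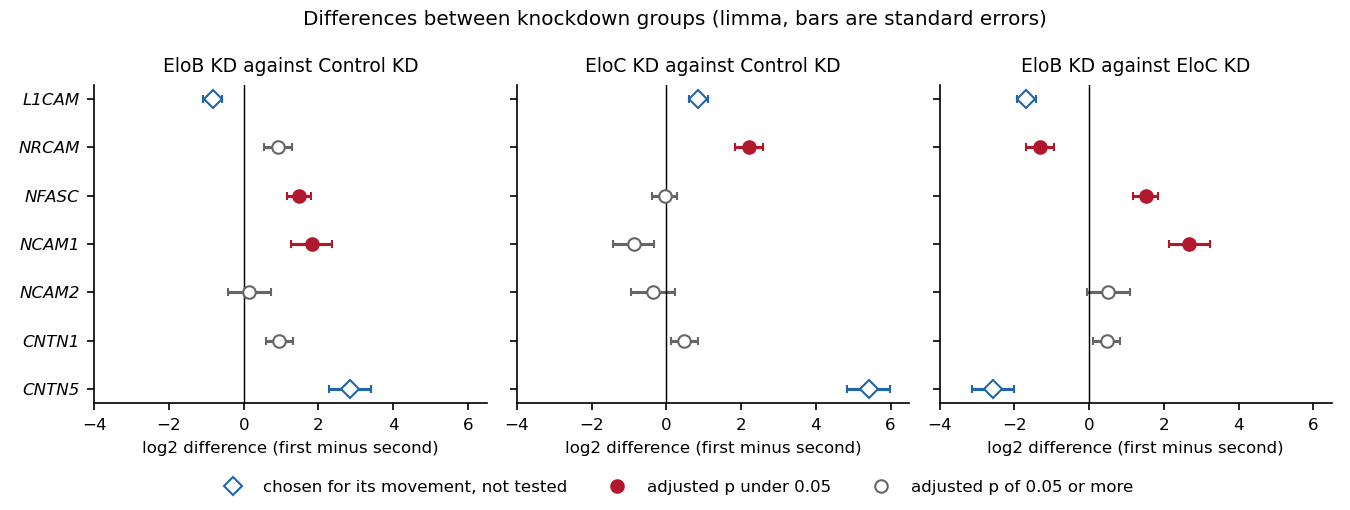
Log2 differences (horizontal axis, first group minus second) of the 7 genes that passed the filter in the 3 knockdown comparisons, with standard errors as bars. Diamonds mark L1CAM and CNTN5, chosen for their movement and not tested, and filled circles mark an adjusted p under 0.05; NRCAM is called in EloC KD (2.22), and NFASC (1.48) and NCAM1 (1.82), which passed the filter only through EloB KD, are called there.

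The genes whose knockdown profile was most like that of L1CAM were found by the root mean square difference of log2 levels, each less its Control KD mean, over the 9 knockdown libraries and 13764 genes. The 5 nearest were GRB10 (0.249 log2 units), an adaptor of receptor tyrosine kinases, TINCR (0.262), PPP2R2B (0.273), a regulatory subunit of protein phosphatase 2A, KIRREL1 (0.287), itself an immunoglobulin-domain adhesion molecule, and ZFAND6 (0.293). KIRREL1 was at 6403 ± 351 normalised counts in Control KD, 3289 ± 284 in EloB KD and 11522 ± 979 in EloC KD, and GRB10 at 12816 ± 1535, 6992 ± 799 and 21131 ± 2729. All 5 were lower in EloB KD and higher in EloC KD than in Control KD, which is how they were found. Of the genes nearest to CNTN5, 4 are given: ANKRD1 (0.748), an ankyrin-repeat protein, ST6GALNAC5 (0.851), a sialyltransferase, COL15A1 (0.993), a collagen, and CLEC12B (1.0), a lectin-like receptor. These lie farther away than those of L1CAM. ANKRD1 went from 4.71 to 14.6 normalised counts in Control KD to 168.2 to 1523 in EloC KD, and ST6GALNAC5, with no read in any Control KD library, reached 17.9 to 59.0 there.

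**Figure D4:**
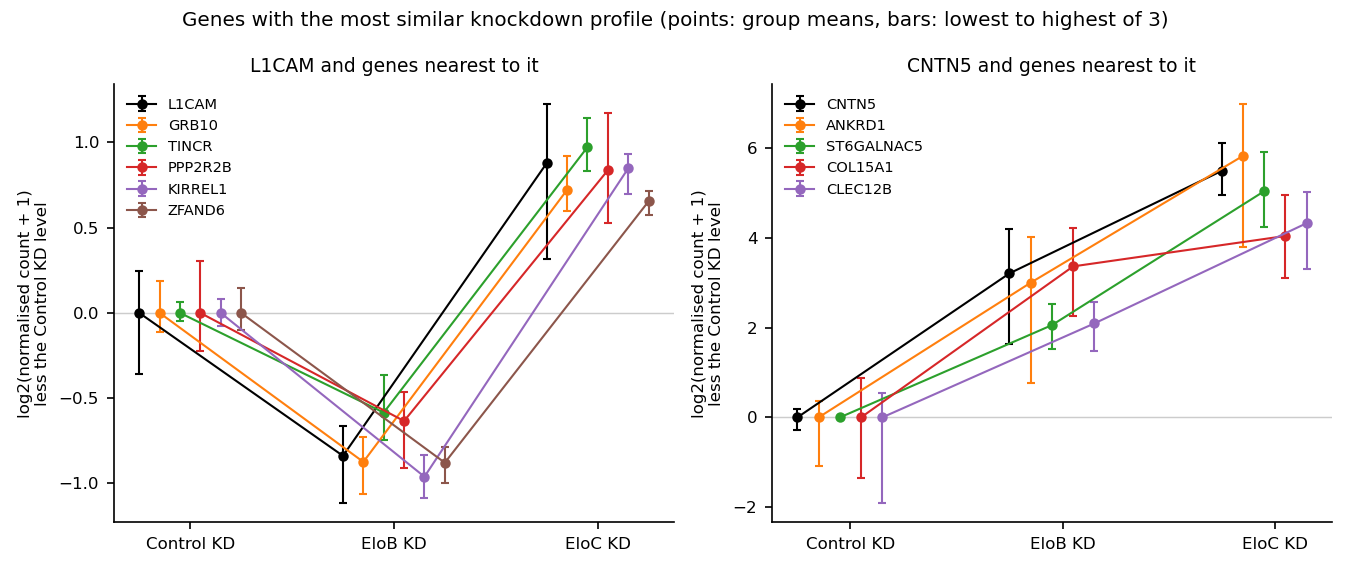
L1CAM (left) and CNTN5 (right), in black, with the 5 genes nearest to L1CAM and 4 of those nearest to CNTN5; the vertical axis is log2 of the normalised count plus 1 less the Control KD level, the horizontal axis the knockdown group, points are group means and bars run from the lowest to the highest of 3 libraries. The root mean square difference over the 9 knockdown libraries is at most 0.293 log2 units for the genes nearest to L1CAM and 1.0 for those shown for CNTN5. Single group means can lie farther apart than that.

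Of 91 genes on 6 lists of partners and relatives, 69 were fitted in the knockdown experiment. Of these 19 were called in EloB KD, 32 in EloC KD and 38 between the knockdowns, where 20.5%, 42.5% and 46.1% of all genes were called. With the replicate block the numbers were 32, 44 and 49, where 36.3%, 57% and 59.4% of all genes were called. Nothing particular to the lists is read from these counts. The lists were drawn up with the results of the set known. Among cytoplasmic partners of L1-type molecules (ankyrins, spectrins, ezrin-radixin-moesin and PDZ proteins) 1 of 14 rose and 3 fell in EloB KD, and 5 rose and 2 fell in EloC KD, with median log2 differences of −0.15 and 0.27 against 0.0035 and 0.0068 over all genes. SDCBP (syntenin, a PDZ adaptor) fell in EloB KD, with a difference of −1.23 ± 0.12, and rose in EloC KD by 0.86 ± 0.12 (limma adjusted p = 0.000171 and 0.000359). ANK1, an ankyrin, rose in EloB KD by 1.07 ± 0.29, and DLG3, a scaffold protein, fell in both (−0.65 ± 0.09 each). Between the knockdowns 3 were higher and 7 lower in EloB KD.

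Extracellular partners and co-receptors had 2 of 20 higher and 4 lower in EloB KD, 6 higher and 3 lower in EloC KD, and 5 higher and 10 lower in EloB KD than in EloC KD. The medians were −0.0035, 0.23 and −0.31, against 0.0035, 0.0068 and −0.015 over all genes. Of all genes 9.34% were called higher and 11.2% lower in EloB KD, and 21.3% and 21.2% in EloC KD. Between the knockdowns 22.3% were higher and 23.8% lower in EloB KD. The counts of this and the other lists stand beside these shares, and no result about a list is read from them. PTPRG, a receptor phosphatase that binds contactins, rose in EloB KD by 1.14 ± 0.22, and PLXNA1, a semaphorin receptor, by 0.94 ± 0.19. VCAN (versican) fell there (−1.03 ± 0.18). PLXNA1 also rose in EloC KD, by 0.80 ± 0.19 (limma adjusted p = 0.00627). In EloC KD ITGA5, the integrin alpha 5 chain, rose by 1.51 ± 0.14 and EGFR by 1.09 ± 0.12. ITGB3, the integrin beta 3 chain, fell there (−1.19 ± 0.17). ITGB3 and EGFR fell in EloB KD (−0.62 ± 0.17 and −0.76 ± 0.12, limma adjusted p = 0.0291 and 0.00207). ITGA5 and EGFR were also the largest differences of this list between the knockdowns (−1.92 ± 0.14 and −1.86 ± 0.12), followed by NOTCH1 (−1.11 ± 0.29).

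Among genes of shedding, polysialylation and signalling 1 of 11 rose and 3 fell in EloB KD, and 4 rose and 2 fell in EloC KD. ST8SIA4, a polysialyltransferase of NCAM1, rose in both, by 1.18 ± 0.16 in EloB KD and 0.81 ± 0.16 in EloC KD (limma adjusted p = 0.00075 and 0.00221), while ST8SIA2, the other such enzyme, had no read. PSEN2, a presenilin of gamma-secretase, rose in EloC KD by 1.41 ± 0.33 and FYN, a kinase downstream of NCAM and contactins, by 0.96 ± 0.11. BACE1, a sheddase of CHL1, and SRC fell in EloB KD (−0.57 ± 0.11 and −0.48 ± 0.13). BACE1 also fell in EloC KD (−0.47 ± 0.11, limma adjusted p = 0.00516). ADAM17, a sheddase of L1CAM, was lower in EloB KD than in EloC KD (−0.93 ± 0.13). Against Control KD it rose in EloC KD by 0.78 ± 0.13 (limma adjusted p = 0.00103) and did not pass in EloB KD (−0.16 ± 0.13, limma adjusted p = 0.435).

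Of 8 transcriptional regulators linked to L1CAM or to neural genes none rose and 3 fell in EloB KD, and 1 rose and 2 fell in EloC KD. RCOR1, a corepressor of REST, fell in both (−0.75 ± 0.08 and −0.39 ± 0.08), as did TCF7L2, a partner of beta-catenin (−0.55 ± 0.17 and −0.93 ± 0.17). SNAI2 (Slug) fell in EloB KD (−0.45 ± 0.12) and SNAI1 (Snail) rose in EloC KD by 0.61 ± 0.20. Of the 9 other contactins and contactin-associated proteins 7 had means under 10, and of the 2 fitted CNTNAP1 (Caspr) fell in EloC KD, from 1121 ± 77 to 765 ± 93 normalised counts (−0.56 ± 0.13, limma adjusted p = 0.0058). Of 24 other immunoglobulin-domain adhesion genes 14 were fitted; 1 rose and 1 fell in EloB KD and 3 rose and 3 fell in EloC KD. LSAMP fell in both (−0.91 ± 0.25 and −0.88 ± 0.25), NECTIN3 rose in both (0.53 ± 0.11 and 0.90 ± 0.11) and BCAM rose in EloC KD by 0.93 ± 0.16.

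**Figure D5:**
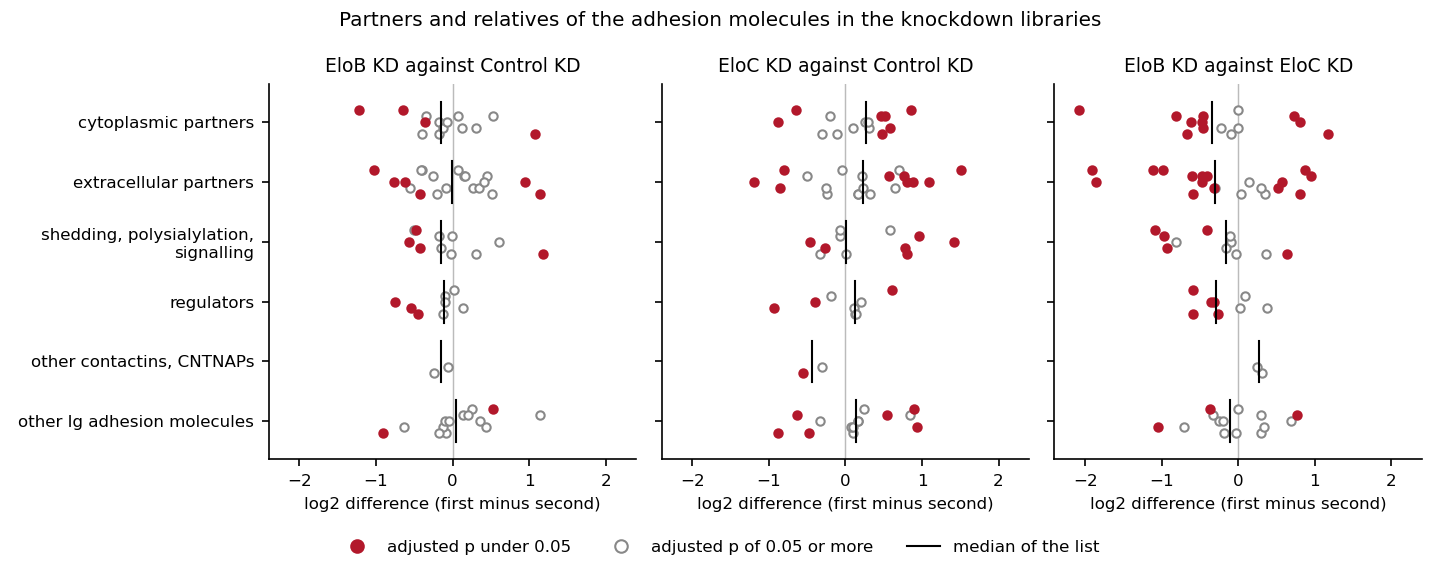
Log2 differences (horizontal axis) of the fitted genes of 6 lists of partners and relatives (vertical axis) in the 3 knockdown comparisons; each point is 1 gene, filled where the adjusted p is under 0.05, and the bar is the median of the list. The median of the cytoplasmic partners is −0.15 in EloB KD and 0.27 in EloC KD, and SDCBP lies at −2.09 between the knockdowns.

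In the peptide experiment 65 of the 91 genes were fitted, and limma called none of them in any of the 3 comparisons. At an unadjusted p under 0.05 there were 7 for the WT against the Scrambled peptide, 6 for the Mutant against the Scrambled peptide and 4 between them, edgeR called 0 in each and DESeq2 2, 0 and 0. With the replicate block 12, 7 and 3 were called, where 16.2%, 8.3% and 4.09% of all genes were called, and no result about the lists is read from them.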

How the data were processed

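The submitters' processing notes name hg38, featureCounts and DESeq2, without versions, as the build and tools behind the gene counts of the 18 libraries; the annotation and strand setting are not given in the sources used here. The authors deposited the signal as DESeq2-normalised counts, 1 table per experiment, and tables of log2 fold changes with adjusted p-values, whose columns were identified from their values. Whole reads were recovered from the deposited signal for 100% of values within 0.05 reads.

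Here limma 3.58.1 (R 4.3.3, intensity trend) was fitted to log2(normalised count + 1) of genes whose mean reached 10. The 3 groups of an experiment shared 1 spread, and 6 comparisons were made, each 2-sided. edgeR 4.0.16, DESeq2 1.42.0, scaling, pseudocounts, filters and left-out libraries were alternatives. The 8 genes, the lists and the tests were chosen with earlier results of these data known. Genes named from lists are among those with the 3 largest differences called per comparison, and the 5 genes nearest in profile to L1CAM and to CNTN5 were sought; some genes are not reported here. RPKM used merged exons of GENCODE 29.

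Deviations from group means correlated between libraries of the same number (0.236 to 0.566 and 0.254 to 0.715 in the 2 experiments) and less between others (−0.439 to 0.0703 and −0.546 to 0.336), so numbers were taken to pair samples. This pairing comes from the data, not the labels. The main fit held no block by number and so did not use the pairing, and fits with the block are given beside it.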

Additional observations from a re-analysis of the deposited data

How the results depend on the processing

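Of 417 log2 differences recomputed under other settings, 391 kept their direction and their side of the threshold, or for L1CAM and CNTN5 moved by less than 1 SD. The replicate block, the other filters and the fit of 2 groups leave a log2 difference unchanged. For L1CAM and CNTN5, which have no p, these settings could give no other outcome. The count of 391 is therefore no measure of how stable the results are. The number of genes called, of the 6 not chosen for their movement, was 2 in EloB KD, and it was 1 with quantile scaling, 0 at a mean of at least 50, 1 with 2 groups only and 1 to 2 when a library was left out. In EloC KD it was 1, and it was 2 with the replicate block, 0 at a mean of at least 50 and 1 to 2 when a library was left out. Between the knockdowns it was 3, and it was 4 with the replicate block, 2 to 3 when a library was left out and 0 at a mean of at least 50, where of the 6 only CNTN1 is left to test. In EloB KD NCAM2 turned to −0.19 with quantile scaling and ranged from −0.45 to 0.71 with a library left out. In EloC KD NFASC turned to 0.017 with edgeR and ranged from −0.25 to 0.18. CNTN1 with the WT peptide ranged from −0.16 to 0.46. None of these passed the threshold, and the cause was not tested. Beyond CNTN1 in the 3 knockdown comparisons, the block by replicate number, which pairs the libraries, changed no other call among these genes. A mean of at least 50 left no gene of the 6 to test with the peptides, and DESeq2 gave CNTN1 no adjusted p there. Depth limits CHL1 in all libraries and NRCAM, NCAM1, NCAM2 and CNTN5 with the peptides, at 15 reads or fewer per library. It also limits some knockdown groups. In Control KD a library held 2 to 3 reads of CNTN5, 2 to 10 of NCAM1, 5 to 11 of NRCAM and 8 to 9 of NFASC. In EloC KD it held 2 to 3 reads of NCAM1 and 6 to 11 of NFASC.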
